A study of Mus musculus and Sus scrofa with 18 samples.

Results

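The 9 genes described here are those by which resting (homeostatic) microglia are usually recognized, P2ry12, P2ry13, Gpr34, Cx3cr1, Csf1r, Siglech, Tmem119, Olfml3 and Sall1. They were taken by name from the mouse count table, which lists 55357 genes, not by a threshold on a measured value. All 9 passed the filter on low counts, as did 19463 genes in all. The libraries came from striatal RNA of 9 mice, 3 in each of 3 groups and 1 library per animal. All mice received AAV9 vectors by injection into the striatum of both hemispheres at 6 months of age and were examined 1.5 months later. WT mice received AAV9 with a control gRNA and no CasRx. Untreated mice were heterozygous HD 140Q-KI animals, in which human HTT exon 1 bearing a long CAG repeat stands in the mouse Htt locus, and they received CasRx, an RNA-cutting Cas13 enzyme driven by the CAG promoter, together with the control gRNA. Treated mice were HD 140Q-KI animals that received CasRx with gRNAs against HTT, which were expressed from U6 promoters in vectors that also carried GFP. Both HD groups therefore differ from WT by the knock-in allele and by the CasRx vector, and the effects of these 2 factors cannot be told apart.

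Microglia are the resident macrophages of the brain. In healthy tissue they survey their surroundings with moving processes, and they owe their survival to signalling through the receptor encoded by Csf1r. Their resting state is marked by receptors for signals that neurons release, such as nucleotides and fractalkine, and it is kept up by TGF-beta signalling and by transcription factors that include PU.1 and Sall1. When microglia respond to damage or infection they usually lower several of these genes while raising lysosomal, complement, antigen presentation and interferon-induced genes.

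PU.1, which the gene Spi1 encodes, binds purine-rich DNA with a GGAA core. RefSeq promoter windows (GRCm38.p6), which reach from 250 bases before to 50 bases after a transcription start, were matched for 6 of the 9 genes, with 8 windows in all because Sall1 has several. No window was matched for Tmem119, Gpr34 and Csf1r. The letters GAGGAA and GGAAGT, both of which occur in PU.1 sites, were searched on both strands. At least 1 of them was present in 4 of the 8 windows and in 43.4% of all 32851 windows of this length, so the share among the homeostatic genes was near the background. GAGGAA alone was present in 28.3% of all windows, GGAAGT alone in 23.8%, and a stretch with the letters of an interferon-stimulated response element in 3.44%, with no match in the 8 windows. The windows of the 2 ADP receptor genes, of Siglech and of Cx3cr1 are shown because these genes recur below. They are written 5′ to 3′ on the strand of the window, and capitals mark either of the PU.1 words or its reverse complement.
P2ry12, chr3:59262936-59263235, minus strand: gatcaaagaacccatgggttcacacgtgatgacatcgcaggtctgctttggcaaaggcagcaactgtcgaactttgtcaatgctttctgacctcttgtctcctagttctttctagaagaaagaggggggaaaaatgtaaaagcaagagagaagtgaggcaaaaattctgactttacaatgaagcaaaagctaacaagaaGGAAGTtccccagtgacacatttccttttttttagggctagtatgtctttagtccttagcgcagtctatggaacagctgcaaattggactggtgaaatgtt
P2ry13, chr3:59210833-59211132, minus strand: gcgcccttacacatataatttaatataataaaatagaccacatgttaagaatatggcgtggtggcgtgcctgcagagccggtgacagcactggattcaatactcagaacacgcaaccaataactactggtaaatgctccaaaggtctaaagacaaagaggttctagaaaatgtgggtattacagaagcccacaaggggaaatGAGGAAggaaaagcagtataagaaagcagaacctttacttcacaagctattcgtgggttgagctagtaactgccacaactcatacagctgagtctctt
Siglech, chr7:55767934-55768233, plus strand: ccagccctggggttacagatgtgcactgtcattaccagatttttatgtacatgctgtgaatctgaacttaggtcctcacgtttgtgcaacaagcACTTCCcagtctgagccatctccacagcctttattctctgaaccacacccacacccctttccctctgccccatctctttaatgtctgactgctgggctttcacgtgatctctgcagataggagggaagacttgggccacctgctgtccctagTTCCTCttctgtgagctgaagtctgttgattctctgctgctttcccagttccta
Cx3cr1, chr9:120068247-120068546, minus strand: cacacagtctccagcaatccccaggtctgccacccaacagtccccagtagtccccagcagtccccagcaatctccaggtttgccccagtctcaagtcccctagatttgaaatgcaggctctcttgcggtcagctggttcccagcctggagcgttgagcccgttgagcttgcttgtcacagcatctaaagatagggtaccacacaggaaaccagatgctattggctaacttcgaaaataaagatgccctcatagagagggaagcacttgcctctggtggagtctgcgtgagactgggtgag
In P2ry12 and P2ry13 the marked words begin 51 and 48 bases before the transcription start. Siglech holds 2 marked words, which begin 156 and 4 bases before the start, and Cx3cr1 holds none. A match of letters is a description and was not tested as a binding site.

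The libraries held 27184356 to 32102121 counts, of which the 9 genes took between 0.0253% and 0.0530%. The smallest single count of any of them was 200 (Gpr34) and the largest 5615 (Csf1r). Values are given below as CPM, counts scaled by TMM to a common library size, and always in the order of replicates 1, 2 and 3. The striatal markers Ppp1r1b, Drd1, Adora2a and Penk were present in every library, but their levels were lower in both HD groups. Their log2 fold changes against WT were -2.22 to -1.63 in untreated and -1.62 to -1.03 in treated mice (edgeR adjusted p at most 0.0127). In treated against untreated mice they were 0.58 to 0.75 (edgeR adjusted p at least 0.348). Htt itself, counted at the 3′ end of the transcript, was at 189, 191 and 182 CPM in WT, 145, 140.4 and 150 CPM in untreated and 139.7, 130.5 and 136 CPM in treated mice. Its log2 fold change was -0.37 in untreated against WT (edgeR adjusted p = 0.00656), -0.46 in treated against WT (adjusted p = 0.00425) and -0.10 in treated against untreated mice (adjusted p = 0.942). Some features of the libraries moved with the groups. Counts of 4 Y-linked genes were present in all 3 WT mice and in untreated mouse 1 and were 0 in the other 5 mice, so that sex is partly confounded with the groups and cannot be told apart from them between treated and WT mice. Untreated mouse 3 stood apart from its group, with the highest level of interferon-induced, lymphocyte and macrophage genes of all 9 libraries.

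None of the 9 homeostatic genes fell in the striatum of HD mice at P under 0.05. Compared with WT, all 9 had a fitted log2 fold change above 0, with a median of 0.43 for untreated mice (range 0.23 to 0.68) and of 0.61 for treated mice (range 0.37 to 0.79), against a median over all 19463 tested genes of 0.02 and 0.00. None reached the 2-fold change that defines a differentially expressed gene (DEG) here, together with an unadjusted P under 0.05. Between treated and untreated mice the fitted values lay between -0.00 and 0.51, with a median of 0.10 against -0.01 over all genes. In bulk tissue, a change in the number of microglia and a change of RNA per cell cannot be told apart.

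**Figure D1:**
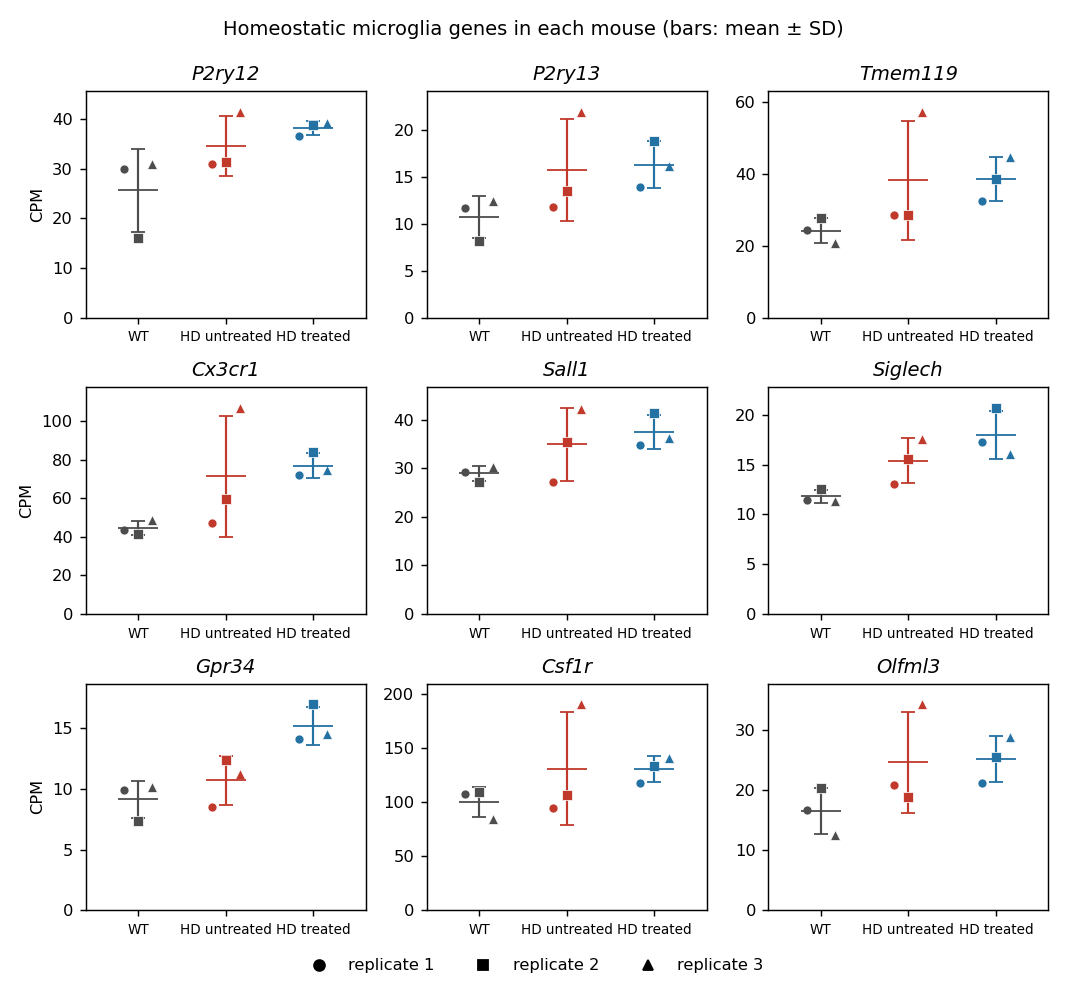
CPM of each of the 9 homeostatic microglia genes (y axis, from 0) in every mouse, by group (x axis), with the symbol giving the replicate number and the bars the mean ± SD (n = 3). All 3 treated mice lie above all 3 WT mice for each gene, whereas untreated mouse 3 is often far above the other untreated mice, as for Cx3cr1 (107 against 47.4 and 59.9 CPM).

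The receptors for nucleotides and lipids were taken first. P2ry12, the ADP receptor that steers microglial processes toward injury, was at 29.8, 16.1 and 31.0 CPM in WT, 30.9, 31.3 and 41.5 CPM in untreated and 36.6, 38.7 and 39.2 CPM in treated mice. WT mouse 2 had much the lowest level and the 3 treated mice lay close together above every WT mouse. The log2 fold change was 0.43 ± 0.22 (SE) in untreated against WT (edgeR quasi-likelihood test, adjusted p = 0.234) and 0.57 ± 0.22 in treated against WT (edgeR adjusted p = 0.176). Without WT mouse 2 these values were 0.19 and 0.34, so this 1 library set a large share of the difference. P2ry13, a second ADP receptor that lies next to P2ry12 on chromosome 3, was at 11.6, 8.18 and 12.4 CPM in WT, 11.8, 13.5 and 21.9 CPM in untreated and 13.9, 18.8 and 16.1 CPM in treated mice. Its lowest value again belonged to WT mouse 2 and its highest to untreated mouse 3. Fitted log2 fold changes were 0.55 ± 0.25 in untreated mice (edgeR adjusted p = 0.175) and 0.60 ± 0.25 in treated mice (edgeR adjusted p = 0.201).

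Gpr34, a receptor for lysophosphatidylserine encoded on the X chromosome, had a pattern of its own. It was at 9.86, 7.34 and 10.2 CPM in WT, 8.49, 12.4 and 11.2 CPM in untreated and 14.1, 17.0 and 14.5 CPM in treated mice. The WT and untreated ranges overlapped, whereas every treated mouse lay above every mouse of both other groups. For Gpr34 the log2 fold change was 0.23 ± 0.18 in untreated against WT mice (edgeR adjusted p = 0.436), 0.73 ± 0.18 in treated against WT mice (edgeR adjusted p = 0.0539) and 0.51 ± 0.18 in treated against untreated mice (edgeR adjusted p = 0.886). Among the 9 genes it was the only one with a P under 0.05 between treated and untreated mice. Its log2 fold change was 0.37 without untreated mouse 1 and 0.43 without treated mouse 2, and its P was then no longer under 0.05. Among mice without Y-linked counts the log2 fold change was 0.38, with P under 0.05.

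Cx3cr1 and Csf1r, receptors for a chemokine and for growth factors, were also highest in untreated mouse 3. Cx3cr1, the receptor for fractalkine, was at 43.4, 41.5 and 48.6 CPM in WT, 47.4, 59.9 and 107 CPM in untreated and 72.1, 84.3 and 74.7 CPM in treated mice. Untreated mouse 1 lay within the WT range, untreated mouse 3 had more than any other animal, and the treated mice formed a narrow group above WT. The log2 fold change was 0.68 ± 0.25 in untreated mice (edgeR adjusted p = 0.105) and 0.79 ± 0.25 in treated mice (edgeR adjusted p = 0.107), which was the largest among the 9 genes in both comparisons with WT. Csf1r, the receptor for Csf1 and Il34 on which microglial survival depends, was at 108, 109.5 and 84.4 CPM in WT, 95.1, 107 and 191 CPM in untreated and 118, 134 and 141 CPM in treated mice. Untreated mice 1 and 2 lay inside the WT range. The log2 fold change was 0.38 ± 0.23 in untreated mice (edgeR adjusted p = 0.312) and 0.38 ± 0.23 in treated mice (edgeR adjusted p = 0.381), so Csf1r was the gene that missed the threshold in both comparisons with WT, although no treated mouse overlapped WT. Without untreated mouse 3 its value in untreated mice was 0.01.

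Among the surface and secreted proteins, Siglech, a lectin that binds sialic acids, was at 11.4, 12.6 and 11.4 CPM in WT, 13.05, 15.6 and 17.6 CPM in untreated and 17.3, 20.7 and 16.1 CPM in treated mice. Neither HD group overlapped WT, and the spread within groups was small. Siglech had a log2 fold change of 0.38 ± 0.14 in untreated mice (edgeR adjusted p = 0.11) and 0.61 ± 0.14 in treated mice (edgeR adjusted p = 0.0476). It was the only one of the 9 genes with an adjusted p under 0.05 in any comparison. Tmem119, a membrane protein used to tell microglia from other macrophages, was at 24.4, 27.6 and 20.7 CPM in WT, 28.7, 28.6 and 57.5 CPM in untreated and 32.5, 38.8 and 44.9 CPM in treated mice. No untreated mouse overlapped WT, but 2 of them exceeded the highest WT mouse by little. Tmem119 had log2 fold changes of 0.66 ± 0.26 in untreated mice (edgeR adjusted p = 0.135) and 0.67 ± 0.26 in treated mice (edgeR adjusted p = 0.178). Without untreated mouse 3, Tmem119 in untreated mice was 0.24 above WT on the log2 scale, and its unadjusted P was no longer under 0.05. Olfml3, a secreted glycoprotein, was at 16.7, 20.4 and 12.6 CPM in WT, 20.9, 18.8 and 34.4 CPM in untreated and 21.2, 25.6 and 28.8 CPM in treated mice. The untreated range overlapped WT and the treated range did not. Its values against WT on the log2 scale were 0.58 ± 0.25 in untreated mice (edgeR adjusted p = 0.161) and 0.61 ± 0.25 in treated mice (edgeR adjusted p = 0.1996).

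Sall1, the transcription factor that holds microglia in their resting identity, was at 29.3, 27.3 and 30.3 CPM in WT, 27.3, 35.4 and 42.3 CPM in untreated and 34.9, 41.4 and 36.3 CPM in treated mice. Untreated mouse 1 was at the lowest WT value and the other untreated mice were above WT. Against WT its log2 fold change was 0.27 ± 0.15 in untreated mice (edgeR adjusted p = 0.257) and 0.37 ± 0.15 in treated mice (edgeR adjusted p = 0.183), the smallest value of the 9 genes against WT in treated mice.

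**Figure D2:**
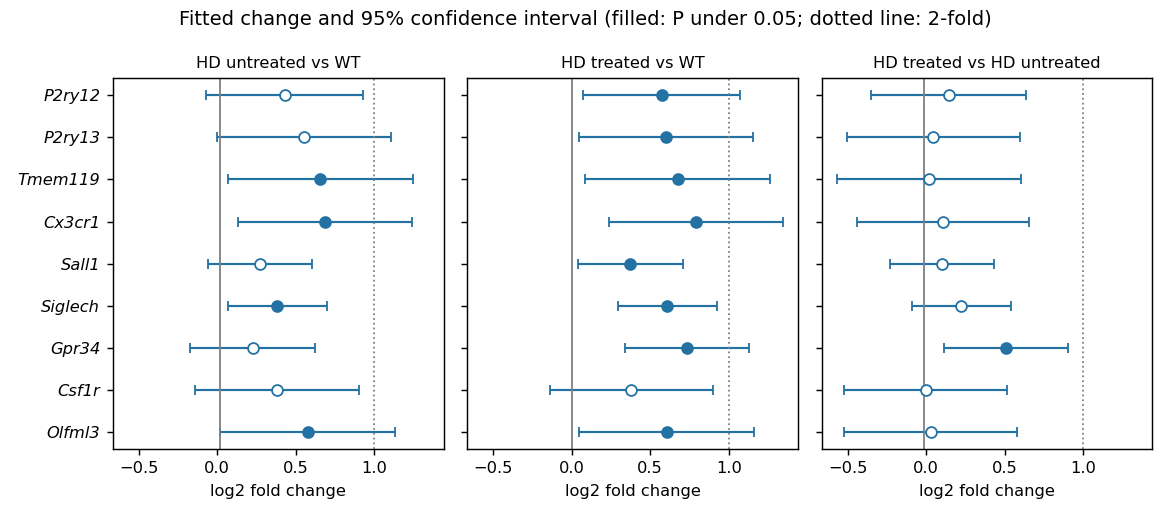
Fitted log2 fold change (x axis) of the 9 genes (y axis) with its 95% confidence interval in the 3 comparisons, from all 9 mice. The grey line is the median of all tested genes, the dotted line marks a 2-fold rise, and filled points have P under 0.05, which 4, 8 and 1 genes reached from left to right.

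Read as a set, 4 of the 9 genes rose at P under 0.05 in untreated against WT mice (Tmem119, Cx3cr1, Siglech and Olfml3), where 15.0% of all tested genes did so. None was a DEG, against 5.57% of all genes that were DEGs in the higher direction, and none had an adjusted p under 0.05, against 4.58%. Tmem119 and Siglech, 2 of 9, were higher in every untreated mouse than in every WT mouse, as were 15.0% of all genes. In treated against WT mice, 8 of the 9 genes rose at P under 0.05, against 9.78% of all genes, with Csf1r the exception. None was a DEG (3.84% of all genes), 1 had an adjusted p under 0.05 (0.904% of all genes), and all 9 were without overlap between groups (13.4% of all genes). With 3 mice against 3, an exact permutation test of a single gene cannot go below 0.1. Between treated and untreated mice 1 gene was higher at P under 0.05 (2.50% of all genes), none was a DEG (0.360%), and 1 had no overlap (6.92%). Gpr34 was that gene in both counts. The 95% intervals of the other genes were wide, from a 0.697-fold to a 1.43-fold level for Csf1r and from 0.675-fold to 1.52-fold for Tmem119 in treated relative to untreated mice. The upper quartile of the log2 fold changes of all genes was 0.29 in untreated against WT mice, which 7 of the 9 genes exceeded, and 0.24 in treated against WT mice, which all 9 exceeded. The comparisons with WT share the same 3 WT mice.

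These counts rested on single animals. In untreated against WT mice the number at P under 0.05 was 0 without untreated mouse 3, 0 without WT mouse 1 and 7 without untreated mouse 1, and the median log2 fold change was 0.24 without untreated mouse 3. In treated against WT mice the number was 4 without WT mouse 1, 3 without treated mouse 2 and 4 without treated mouse 3, whereas the median stayed between 0.56 and 0.70 whichever mouse was left out. With the share of Y-linked counts as a covariate that median was 0.18, against 0.61. All WT mice and no treated mouse had Y-linked counts, so this fit rests mostly on untreated mouse 1 and cannot part sex from group. Between treated and untreated mice 4 genes had P under 0.05 once untreated mouse 3 was left out (Tmem119, Cx3cr1, Gpr34 and Csf1r), with a median of 0.36, and none without untreated mouse 1 or without treated mouse 2. The share of all genes at P under 0.05 was not taken in these refits. Whether these counts are particular to the 9 genes was therefore not tested. Relative to the WT mean, the mean log2 CPM of the 9 genes was 0.12, 0.31 and 0.86 for the untreated animals, and 0.46, 0.71 and 0.63 for the treated ones, with WT mice at 0.07, -0.08 and 0.01. The untreated mouse nearest to WT was the one with Y-linked counts. Compared with WT mice, which all have Y-linked counts too, this mouse alone gave a median log2 fold change of 0.15, a value from 1 animal in the untreated group. With the covariate the number at P under 0.05 was 0 in all 3 comparisons. The part of sex in these differences was not tested apart from the groups.

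**Figure D3:**
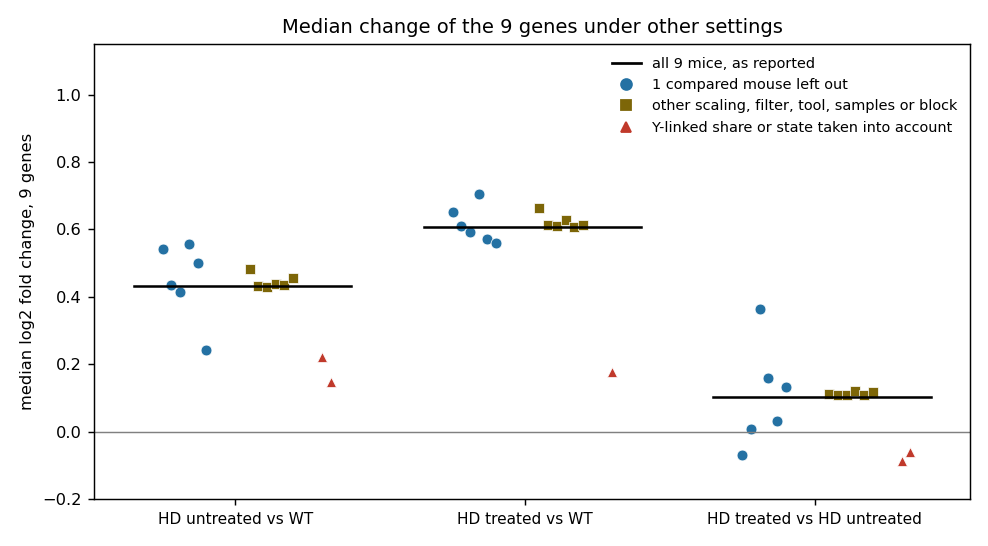
Median log2 fold change of the 9 genes (y axis) in the 3 comparisons (x axis) as reported (line) and with 1 compared mouse left out, with other settings, or with Y-linked counts taken into account (points). Leaving out untreated mouse 3 takes the untreated median from 0.43 to 0.24 and the difference between treated and untreated mice from 0.10 to 0.36.

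The 9 genes varied together among the mice. Over the 36 pairs of genes, Pearson's r of log2 CPM across the 9 mice had a median of 0.77 and ran from 0.39 to 0.98, with the highest between Tmem119 and Olfml3. After the group means were removed the median was 0.59, with a range from -0.21 to 0.97. These are descriptions over 9 libraries that share group, sex and depth differences. Among 12397 other genes with at least 5 CPM on average, those whose profile over the 9 mice was most like the mean of the 9 genes included Dock2 (r = 0.99), Spi1 (r = 0.98), Csf3r (r = 0.98) and Slc29a3 (r = 0.98). Dock2 is an activator of Rac in blood cells, Csf3r the receptor for granulocyte colony-stimulating factor and Slc29a3 a lysosomal nucleoside transporter. Spi1, at 3.02, 2.83 and 3.52 CPM in WT, reached 3.93, 4.74 and 13.4 CPM in untreated and 5.98, 8.34 and 8.08 CPM in treated mice.

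General genes of microglia and macrophages had a larger median fold change than the homeostatic genes. The list holds complement and lysosomal genes, which responding microglia also raise, so it is not neutral to their state. Over its 15 genes (Aif1, Itgam, Ptprc, Cd68, Tyrobp, Fcer1g, C1qa, C1qb, C1qc, Laptm5, Ctss, Cyba, Fcgr3, Cd14 and Ly86) the median log2 fold change was 1.30 in untreated and 1.18 in treated mice against WT, and 11 and 10 of the 15 were DEGs in the higher direction, against 5.57% and 3.84% of all genes. The 3 C1q genes and Ctss made up 57.6% to 61.5% of the summed CPM of the list in WT, 65.8% to 72.0% in untreated and 64.5% to 70.3% in treated mice. Ptprc, which encodes the leukocyte antigen CD45, was at 3.29, 2.97 and 3.32 CPM in WT, 5.86, 9.64 and 42.0 CPM in untreated and 9.10, 14.5 and 16.4 CPM in treated mice. Ctss, a lysosomal protease, had a log2 fold change of 1.88 in untreated mice (edgeR adjusted p = 0.0424) and 1.72 in treated mice (edgeR adjusted p = 0.0880). C1qa, a subunit of the first complement component, had values of 1.90 (edgeR adjusted p = 0.0489) and 1.53 (edgeR adjusted p = 0.131). Without untreated mouse 3 the median of this list in untreated mice was 0.55 and 1 of the 15 genes was a DEG. The share of all genes that were DEGs or had P under 0.05 was not taken in this refit, which the lists below also use.

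The ratio of the summed CPM of the 9 homeostatic genes to that of the 15 genes was lower in HD mice. Since the 15 genes had the larger fold changes, a gene at the same level in all mice would have a lower ratio as well. It was 1.02, 0.882 and 1.08 in WT, 0.748, 0.663 and 0.354 for the untreated animals, and 0.719, 0.590 and 0.489 for the treated ones, and neither HD group overlapped WT. Relative to the WT mean, the ratio was 0.592 ± 0.209 (SD, n = 3) in untreated and 0.603 ± 0.116 in treated mice, and the HD groups overlapped each other widely. Untreated mouse 3, in which the summed CPM of the 9 genes was highest, had the lowest ratio of all. Without it the untreated value was 0.709. The sums are weighted toward the genes with most counts. On the mean of log2 CPM, in which each gene has the same weight, the ratio relative to WT was 0.668 in untreated and 0.689 in treated mice. On that measure untreated mouse 1, at 0.858, lay within the WT range of 0.849 to 1.13, and no treated mouse did. Taken singly over the summed CPM of the 15, 5 of the 9 genes were lower without overlap with WT in each HD group. The sum of the 15 itself was 242 to 307 CPM in WT, at least 379 CPM in untreated and at least 501 CPM in treated mice. The share of all genes that were lower in this way was not taken, so the count shows no fall particular to the 9. Over Aif1 alone the ratio of the sum was 0.596 and 0.502, and untreated mouse 1 lay within the WT range.

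**Figure D4:**
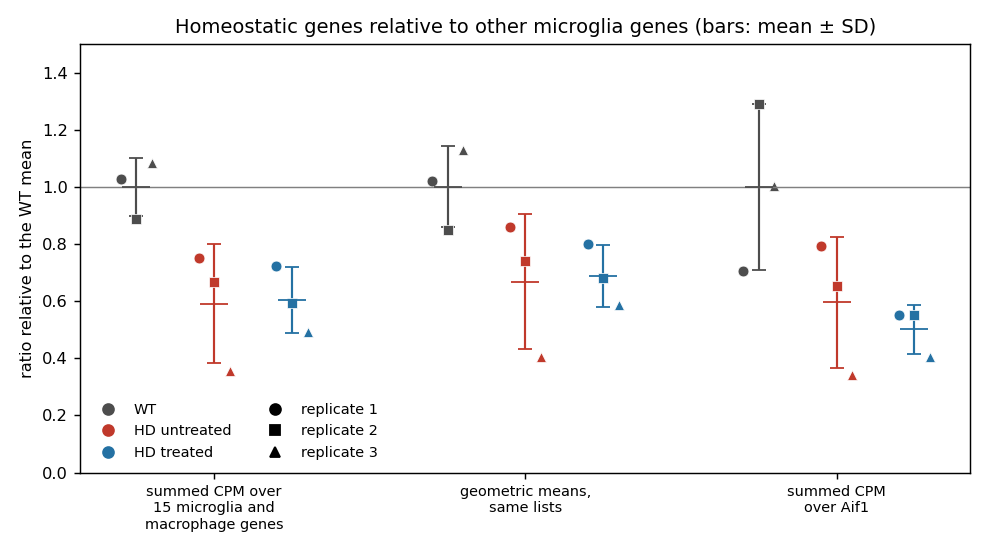
Ratio of the 9 homeostatic genes to other microglia genes in every mouse, divided by the WT mean (y axis, from 0), for 3 ways of taking the ratio (x axis); bars are mean ± SD (n = 3). For the summed CPM over the 15 microglia and macrophage genes, HD mice lie between 0.356 and 0.752 and WT mice between 0.887 and 1.09. In the other 2 ways untreated mouse 1 lies within the WT range.

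Other genes that are enriched in resting microglia had a median near that of the 9 in untreated mice and below it in treated mice. In a list of 16 that includes Fcrls, Slc2a5, Selplg, Crybb1, Ltc4s, Slco2b1, Entpd1, Golm1, Gpr84, Adgrg1 and Lpcat2, the median log2 fold change was 0.40 in untreated and 0.42 in treated mice, and 8 and 7 rose at P under 0.05 (15.0% and 9.78% of all genes) while 0 and 1 fell (13.7% and 11.6% of all genes). The 2 DEGs among them, in both comparisons, were Gpr84, a receptor for medium-chain fatty acids that is raised in inflammation (1.63 and 1.84), and Lpcat2, a lysophospholipid acyltransferase (1.07 and 1.04). Of all genes, 5.57% in untreated and 3.84% in treated mice were DEGs in the higher direction. Gpr84 was at 1.33, 1.71 and 4.38 CPM and Lpcat2 at 15.3, 15.9 and 36.1 CPM in untreated mice, with untreated mouse 3 the highest. Without that mouse their values in untreated mice were 0.93 and 0.55, neither was a DEG, and 3 of the 16 had P under 0.05 in the higher direction.

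The signals that keep microglia alive and in their resting state did not move as one. Of 16 such genes, which include Csf1, Il34, Tgfb1, Tgfbr1, Tgfbr2, Smad3, Cx3cl1, Spi1, Irf8, Runx1, Mef2c, Ikzf1 and Bhlhe41, 8 rose and 3 fell at P under 0.05 in untreated mice, and 5 rose and 4 fell in treated mice. Of all genes 15.0% rose and 13.7% fell in untreated, and 9.78% rose and 11.6% fell in treated mice. Once untreated mouse 3 was left out, 4 of the 16 had P under 0.05 in the higher direction in untreated mice. Cx3cl1, the neuronal ligand of Cx3cr1, was at 795, 878 and 784 CPM in WT, 668, 571 and 576 CPM in untreated and 552, 552 and 604 CPM in treated mice. It fell by 0.44 on the log2 scale in untreated mice (edgeR adjusted p = 0.0183) and by 0.52 in treated mice (edgeR adjusted p = 0.0156), with no overlap with WT, while Cx3cr1 had values of 0.68 and 0.79. Bhlhe41, a transcription factor that microglia share with other cells, fell by 0.88 in untreated mice (edgeR adjusted p = 0.00185) and by 0.78 in treated mice (edgeR adjusted p = 0.00595). Smad3, which carries TGF-beta signals, fell by 0.66 (edgeR adjusted p = 0.00564) and by 0.48 (edgeR adjusted p = 0.0377). Of the ligands of Csf1r, Csf1 had a log2 fold change of 0.78 in untreated mice (edgeR adjusted p = 0.0570) and 0.65 in treated mice (edgeR adjusted p = 0.141). Il34, the ligand made mainly by neurons, had -0.20 (edgeR adjusted p = 0.224) and -0.27 (edgeR adjusted p = 0.156). Tgfb1 had 0.67 (edgeR adjusted p = 0.215) and 0.47 (edgeR adjusted p = 0.444). Spi1 was a DEG in both comparisons, with 1.23 in untreated mice (edgeR adjusted p = 0.0882) and 1.25 in treated mice (edgeR adjusted p = 0.125). Its value in untreated mice was 0.47 without untreated mouse 3, and it was then not a DEG.

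Some genes of activated microglia and most interferon-induced genes had far larger fold changes than the homeostatic genes. Of 16 disease-associated microglia genes, 6 were DEGs in the higher direction in each HD group, against 5.57% and 3.84% of all genes. Medians over this list were 0.77 in untreated and 0.52 in treated mice. Without untreated mouse 3, 4 of the 16 were DEGs in untreated mice, with a median of 0.37. Clec7a, a receptor for fungal sugars, was at 0.302, 0.147 and 0.233 CPM in WT, 1.47, 4.30 and 20.9 CPM in untreated and 3.59, 8.40 and 9.01 CPM in treated mice. Itgax, an integrin subunit, was at 0.147 to 0.432 CPM in WT, 1.72 to 17.5 CPM in untreated and 3.46 to 9.04 CPM in treated mice. Cst7, a protease inhibitor, had 6, 0 and 3 counts in WT mice and at least 41 in every HD mouse. The adjusted p of these 3 genes against WT (edgeR) lay between 0.0150 and 0.0212 in untreated and between 0.0326 and 0.0437 in treated mice. Of 15 interferon-induced genes, 15 in untreated and 14 in treated mice were DEGs in the higher direction, against the same shares of all genes. The medians were 3.47 and 3.10, and Usp18, Mx1 and Rtp4 had the smallest P. Without untreated mouse 3, 13 of the 15 were DEGs in untreated mice. The share of all genes that were DEGs was not taken in the refit without this mouse. Between treated and untreated mice, no gene of these 2 lists was a DEG.

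**Figure D5:**
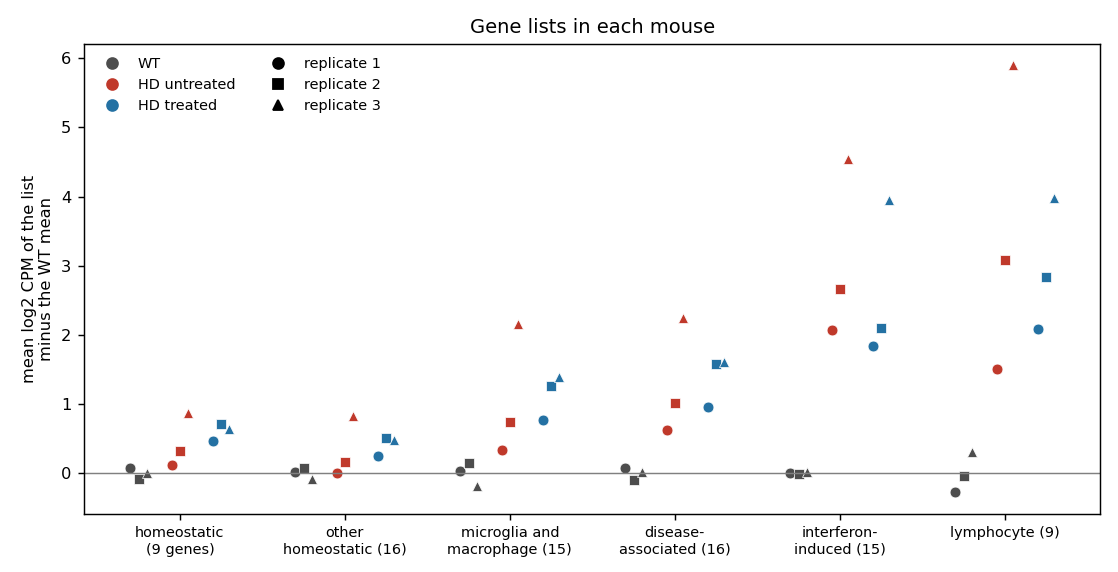
Mean log2 CPM of 6 gene lists minus the WT mean (y axis) in every mouse, with the number of genes in each list (x axis). The 9 homeostatic genes reach at most 0.86, the 15 microglia and macrophage genes 2.16, the 16 disease-associated genes 2.24 and the 15 interferon-induced genes 4.54, each in untreated mouse 3.

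Markers of other cells also moved, and their part in the levels of the 9 genes was not tested. Of all genes, 5.57% in untreated and 3.84% in treated mice were DEGs in the higher direction against WT. The share of DEGs in the lower direction was not taken. All 9 markers of T cells and natural killer cells were DEGs in the higher direction in untreated mice and 6 of 9 in treated mice. Their summed level was 1.69 to 2.26 CPM in WT, 4.95 to 79.9 CPM in untreated and 6.68 to 20.9 CPM in treated mice, and Cd3g had 0 counts in every WT mouse. Without untreated mouse 3, 6 of the 9 were DEGs in untreated mice. For this and the other counts without that mouse, the share of all genes was not taken. Of 10 markers of blood monocytes and neutrophils, 6 passed the filter on low counts and 4, among them Chil3, S100a8 and S100a9, did not. In each HD group 2 of the 6 were DEGs in the higher direction, against 5.57% and 3.84% of all genes, and 1 in the lower. Those higher were Ly6c2 and Plac8, and Ace, which other cells also express, was lower. Fn1, Vcan and Ace made up at least 84.9% of the summed level in every mouse, and that of the remaining 3 markers was 0.266 to 0.551 CPM in WT, 1.65 to 16.9 CPM in untreated and 4.17 to 10.6 CPM in treated mice. Ace was at 26.4, 126 and 57.8 CPM in WT mice, highest in WT mouse 2. In untreated mice 1 of the 6 was a DEG in the higher direction without untreated mouse 3. Ly6c2, a marker of inflammatory monocytes, had 7, 13 and 0 counts in WT mice. It had 43, 86 and 322 counts in the untreated animals, and 125, 165 and 245 in the treated ones. Ccr2, another of the 6 markers, was not a DEG in either HD group. Its counts were 2, 2 and 6 in WT mice and 2, 3 and 71 in the untreated animals. The treated ones had 6, 17 and 30. Entry of monocytes was not tested. Of the 9 markers of macrophages at the borders of the brain 7 passed the filter, with Pf4 and Folr2 below it, and their summed level was 8.12 to 9.32 CPM in WT, 4.67 to 13.6 CPM in untreated and 8.61 to 9.88 CPM in treated mice. Of the 7, 2 were DEGs in the higher direction in untreated mice and 0 in treated mice, against 5.57% and 3.84% of all genes. They were Ms4a7, at 0.281, 0.571 and 5.06 CPM in untreated and at most 0.302 CPM in WT mice, and Clec10a, at 0.210, 0.638 and 1.32 CPM in untreated and at most 0.302 CPM in WT mice. None of the 7 was a DEG in the higher direction without untreated mouse 3. Cd163, another of the 7, fell by 0.85 in untreated mice (edgeR adjusted p = 0.0201) and had -0.11 in treated mice (edgeR adjusted p = 0.765). Siglech is also a marker of plasmacytoid dendritic cells. Of 7 other markers of these cells 4 passed the filter, with Klk1, Spib and Cd300c below it. Against 5.57% and 3.84% of all genes, 1 of the 4 was a DEG in the higher direction in both HD groups. It was Lag3, which microglia and T cells also express (2.09 and 1.72). Its value in untreated mice was 0.76 once untreated mouse 3 was left out, and it was then not a DEG. The summed level of the other 3 was 6.75 to 7.11 CPM in WT, 7.13 to 8.31 CPM in untreated and 7.31 to 9.08 CPM in treated mice. Choroid plexus markers differed widely within groups, with summed levels of 66.2 to 3790 CPM in WT, 36.2 to 188 CPM in untreated and 40.3 to 1285 CPM in treated mice, and their level in WT mouse 2, the mouse with the lowest P2ry12, was the highest of all. All 8 of these markers were DEGs in the lower direction in untreated against WT mice and 0 in treated against WT mice. Over 6 astrocyte markers the median was 0.02 in untreated and 0.01 in treated mice. Of the 6, 1 was a DEG in the higher direction in each HD group, against 5.57% and 3.84% of all genes. It was Gfap, an intermediate filament that reactive astrocytes raise, at 143, 180 and 86.2 CPM in WT, 231, 264 and 575 CPM in untreated and 238, 477 and 369 CPM in treated mice. Its log2 fold change was 1.39 in untreated mice (edgeR adjusted p = 0.0546) and 1.403 in treated mice (edgeR adjusted p = 0.0838), and without untreated mouse 3 the first was 0.86 and Gfap was not a DEG. Neuron markers summed to 4494 to 5777 CPM in WT, 5570 to 6668 CPM in untreated and 5090.2 to 5434 CPM in treated mice.

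Several of the 9 genes lie inside or beside other genes, and whether the counting used strand is not stated in the sources used here. P2ry12 and P2ry13 lie within Med12l on the opposite strand, and Gpr34 within Cask on the opposite strand. Med12l had log2 fold changes of 0.00, 0.02 and 0.02 in untreated against WT, treated against WT and treated against untreated mice. Cask had 0.22, 0.08 and -0.15 in these comparisons, and Gpr34 had 0.23, 0.73 and 0.51. The part of shared reads was not tested. The annotated model of Cx3cr1 on chromosome 9 overlaps Wdr48 and Ttc21a on the opposite strand and Gorasp1, Csrnp1 and Xirp1 on the same strand, and Csf1r overlaps Hmgxb3 on the opposite strand. Counts of these genes are therefore uncertain where the counting could have split or dropped shared reads. Of the others, Olfml3 lies on chromosome 3, Tmem119 on chromosome 5, Siglech on chromosome 7 and Sall1 on chromosome 8.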

How the data were processed

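Striatal RNA of 9 mice, 3 per group, was sequenced with a 3′ mRNA kit whose primers carry a sample barcode and a unique identifier. The authors deposited raw counts per gene. The study's methods name STAR and edgeR, whereas the submitters' processing notes list Trimmomatic 0.39, FastQC 0.11.9, HISAT2 2.2.1 and featureCounts 2.0.1, and which of them made the mouse table was not settled. The mouse build, the use of strand and the collapsing of identifiers are not given in the sources used here. The pig count table was not used. Gene symbols were matched for 94.1% of gene IDs, which hold 99.8% of counts.

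Counts of all 9 mice were fitted with edgeR 4.0.16 in R 4.3.3 (filterByExpr, TMM scaling, quasi-likelihood test, Benjamini-Hochberg adjustment over 19463 genes, 6 residual degrees of freedom). P is the unadjusted value, and a DEG has P under 0.05 and at least a 2-fold change. Intervals cover 95%. The labels do not say whether mice of a group shared a litter. DESeq2 1.42.0, other filters and scalings, other thresholds, a replicate block, the 2 compared groups alone, Y-linked counts and leaving out each mouse were tried as alternatives. The code was tested on simulated data. The 9 genes and all lists were chosen with earlier results of these data known. Genes named outside the 9 were, by rule, the 3 of each list with the smallest P in untreated against WT mice, any called between the HD groups, the ligands and host genes of the 9, and the 5 genes most alike in profile. Some genes of these lists, and a ratio over 1 of them, are not reported here. Aif1 and the striatal markers served as references, and other names were chosen after their values were seen.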

Additional observations from a re-analysis of the deposited data

How the results depend on the processing

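The count of DEGs among the 9 genes was 0 in each comparison under every fit tried, and also at P under 0.01 with 2-fold. Without the demand of 2-fold, the count was 4 in untreated against WT, 8 in treated against WT and 1 in treated against untreated mice at P under 0.05, and 0, 1 and 0 at an adjusted p under 0.05 (edgeR). With the share of Y-linked counts as a covariate, the number at P under 0.05 was 0 in all 3 comparisons and the median log2 fold change in treated against WT mice was 0.18. This fit rests mostly on untreated mouse 1, the only HD mouse with such counts. With only libraries that hold Y-linked counts, untreated against WT mice gave 0 genes and a median of 0.15, but the untreated group then held 1 mouse, which is assumed to vary like the others, so this count says little. Treated and WT mice could not be compared within 1 state of the Y-linked counts.

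Leaving out 1 mouse at a time gave 0 to 7 genes at P under 0.05 in untreated against WT mice, 3 to 8 in treated against WT mice and 0 to 4 in treated against untreated mice, where the median ran from -0.069 to 0.36. In that last comparison single genes changed sign as mice were left out, with P2ry13 from -0.11 to 0.36, Tmem119 from -0.14 to 0.43, Cx3cr1 from -0.11 to 0.52, Sall1 from -0.041 to 0.26, Olfml3 from -0.12 to 0.34 and Csf1r from -0.18 to 0.37. The covariate gave -0.086 for P2ry13, -0.17 for Tmem119, -0.096 for Cx3cr1, -0.034 for Sall1 and -0.11 for Olfml3, and only libraries without Y-linked counts gave -0.11, -0.13, -0.0996, -0.0339 and -0.061. Csf1r, reported at -0.00, was 0.01 without TMM factors (0.00735), with DESeq2 (0.00671), without a filter (0.00643) and with the 2 compared groups alone (0.00670), 0.016 with at least 10 counts in every library and 0.032 with the replicate block. In untreated against WT mice the covariate gave -0.0041 for Sall1 and -0.015 for Csf1r, and only libraries with Y-linked counts gave -0.074 for Sall1, -0.092 for Gpr34 and -0.065 for Csf1r. In treated against WT mice the covariate gave -0.039 for Sall1 and -0.21 for Csf1r. The causes were not tested, and the share of all genes at P under 0.05 was not taken in these refits.

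The deviations of mice with the same replicate number had correlations from -0.08 to 0.24. They were not set against those of mice with different numbers, so whether the numbers pair the mice was not settled. The replicate block gave 5, 7 and 1 genes at P under 0.05, against 4, 8 and 1. Without 1 mouse, the ratio of the 9 genes to the 15 microglia and macrophage genes relative to WT ran from 0.511 to 0.709 in untreated and from 0.543 to 0.659 in treated mice, against 0.592 and 0.603, and an alternative denominator of 1 further gene is not reported here. Without untreated mouse 3, 1 of the 15 was a DEG, against 11, and the share of all genes was not taken in that refit.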
